A study of Mus musculus with 9 samples.

Results

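Mouse splenic dendritic cells (DC) were examined for the transcripts of 10 genes through which DC address T cells: the costimulators Cd80, Cd86, Icosl, Tnfsf9, Tnfsf4 and Cd70, the checkpoint ligands Cd274 and Pdcd1lg2, and the activation-linked surface molecules Cd40 and Cd83. The members were chosen by name, with earlier results of these data known, and all 10 were found among the 39179 genes of the count table. Of these, 8 passed the filter on low counts that left 13819 genes for testing, and Tnfsf4 and Cd70 did not.

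CD80 and CD86 on a DC bind CD28 on T cells and deliver the costimulation that goes with antigen recognition, while CTLA-4 competes for the same ligands. ICOSL engages ICOS, and the TNF family ligands 4-1BBL (Tnfsf9), OX40L (Tnfsf4) and CD70 engage 4-1BB, OX40 and CD27. PD-L1 (Cd274) and PD-L2 (Pdcd1lg2) bind the inhibitory receptor PD-1. CD40 on the DC receives CD40L from helper T cells and drives DC maturation, during which CD80, CD86, CD40 and CD83 are classically raised at the DC surface.

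The DC were taken at steady state from the spleens of C57BL/6J mice, with no allele altered and no treatment given, and by the methods the mice were 6 to 12 weeks old. CD8+ cDC1, CD8- cDC2 and plasmacytoid DC (pDC) were each sorted in 3 biological replicates, each from a pool of 15 to 17 mice, after depletion of cells carrying CD3, Thy-1, Ly6G/Ly6C or TER-119, among others. cDC1 and cDC2 are the conventional DC, while pDC are the specialised producers of type I interferon. Replicates of one number carry the same date code in the labels of all 3 subsets. Levels are given as TMM-normalized CPM, counts relative to the scaled total of the library, and p-values measure the spread between pools. In such bulk libraries fewer cells carrying a transcript and less of it per cell cannot be told apart.

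Total counts on genes ranged from 15806597 to 32453789 per library, so that 3 counts, the limit allowed by a count of 0, corresponded to between 0.0908 and 0.203 CPM (counting error only). The sort markers followed the labels: Cd8a lay between 1309 and 1675 CPM in cDC1 and between 18.1 and 24.6 in cDC2, and Bst2, which encodes CD317, lay between 2176 and 2497 in pDC and at most at 93.8 elsewhere. The summed level of 6 cDC1 markers was highest in cDC1 (5740 to 6521 CPM) and that of 6 pDC markers in pDC (10595 to 11823). The 6 cDC2 markers summed to 1608 to 1762 CPM in cDC2 and to 1594 to 1741 in pDC, where Clec10a and Cd209a were high, while Clec4a4, Esam and Itgam were highest in cDC2. The replicate 3 libraries stood apart in all 3 subsets. They had the lowest total of their subset and between 299 and 586 genes with a single count, against 1271 to 1674 in the other 6 libraries. In them the median shift of 10 immediate-early and heat-shock genes from replicates 1 and 2 was 1.41 on the log2 scale in cDC1, 0.93 in cDC2 and 1.497 in pDC. Where leaving out replicate 3 changes a member's call or sign, or moves a called fold by over 1.5 times, the value without it is given.

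Sequences upstream of the RefSeq start were matched for 4 of the 10 members (GRCm38.p6). They are shown because Cd274 and Pdcd1lg2 are neighbours on chromosome 19 with 22.8 kb between them, because Icosl was called higher in cDC2 than in cDC1 as they were, and because Cd80 was not. Each run holds the 250 bases before the start on the plus strand, and capitals mark a match to a searched motif.
Cd274, chr19:29367188-29367437: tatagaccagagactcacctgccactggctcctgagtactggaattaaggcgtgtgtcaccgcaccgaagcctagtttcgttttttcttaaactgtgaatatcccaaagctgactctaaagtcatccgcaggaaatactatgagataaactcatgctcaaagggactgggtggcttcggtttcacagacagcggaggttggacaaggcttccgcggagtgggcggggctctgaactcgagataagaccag
Pdcd1lg2, chr19:29410669-29410918: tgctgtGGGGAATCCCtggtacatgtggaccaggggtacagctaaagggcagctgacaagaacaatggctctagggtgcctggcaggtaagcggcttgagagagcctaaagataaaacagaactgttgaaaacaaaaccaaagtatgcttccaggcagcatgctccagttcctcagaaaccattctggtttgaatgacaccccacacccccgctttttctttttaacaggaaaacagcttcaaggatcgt
Icosl, chr10:78069118-78069367: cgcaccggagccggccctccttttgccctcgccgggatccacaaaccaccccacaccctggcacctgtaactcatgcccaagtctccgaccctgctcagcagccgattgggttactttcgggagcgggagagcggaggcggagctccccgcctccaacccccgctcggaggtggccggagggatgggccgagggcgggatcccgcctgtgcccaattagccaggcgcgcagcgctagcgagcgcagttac
Cd80, chr16:38458683-38458932: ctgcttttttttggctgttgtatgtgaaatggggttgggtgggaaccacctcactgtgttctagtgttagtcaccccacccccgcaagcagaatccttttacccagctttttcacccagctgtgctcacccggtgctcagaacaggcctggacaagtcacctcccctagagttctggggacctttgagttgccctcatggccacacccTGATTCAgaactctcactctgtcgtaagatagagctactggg
Both strands were searched for 4 motifs: the NF-kB consensus, the interferon-stimulated response element (GAAA, any 2 bases, GAAA), the interferon-gamma-activated site TTCNNNGAA and the AP-1 site TGANTCA. The Pdcd1lg2 run held an NF-kB match at positions -244 to -235 from the start, a motif present in 3.9% of the 32851 runs of this length. The Cd80 run held an AP-1 match at positions -42 to -36, which 6.75% of all runs hold. The whole Cd80 run lies inside the GENCODE span of the gene, which begins at 38455561, before the RefSeq start used here. The Icosl run also ends inside the GENCODE span of its gene, which begins at 78069302. No match to any of the 4 was found in these windows of Cd274 and Icosl. The interferon-stimulated response element and the activated site were present in 2.98% and 7.02% of all runs. A match describes the letters and shows no binding.

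Across the subsets, 7 of the 8 tested members were lower in pDC than in either conventional DC, and the exception was Tnfsf9. The widest steps were in Cd83 and Cd86 from cDC1 (39.5-fold and 36.8-fold) and in Pdcd1lg2 and Cd83 from cDC2 (48.9-fold and 35.9-fold). Between the conventional subsets the members divided. Cd86 was 4.07-fold higher in cDC1, while Cd274, Pdcd1lg2 and Icosl were 4.57-fold, 7.90-fold and 2.31-fold higher in cDC2. Cd80, Cd40, Cd83 and Tnfsf9 did not pass the test between cDC1 and cDC2.

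In the edgeR quasi-likelihood test at an adjusted p of 0.05, pDC were lower than cDC1 in 7 members and higher in 0, where 24.4% of all genes tested were lower and 24.3% higher. Against cDC2 the count was again 7 lower and 0 higher, with 23.3% of all genes lower and 22.5% higher. At an unadjusted p of 0.05, and with DESeq2 or limma-voom, the number of members higher in pDC was again 0. In these 14 calls the libraries of the compared subsets did not overlap. The share of all genes without such overlap was not counted, so this adds nothing to the calls themselves. For cDC2 against cDC1, 3 members were higher and 1 lower, with 12.7% of all genes higher and 11.7% lower. The median log2 fold change over the 8 members was -2.86 from cDC1 to pDC, -3.31 from cDC2 to pDC and 0.24 from cDC1 to cDC2, and over all genes tested it was 0.02, -0.01 and 0.03. The comparisons share libraries and are not independent of each other.

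**Figure D1:**
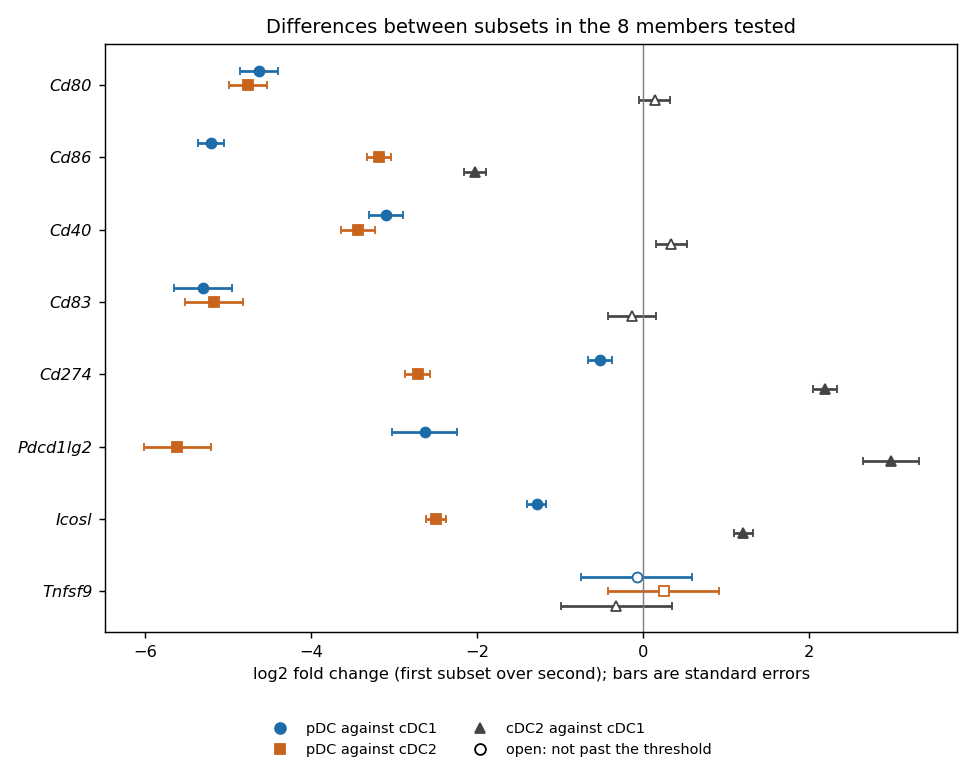
Log2 fold changes (horizontal axis) of the 8 members tested, with standard errors as bars, with circles where pDC are set against cDC1, squares where they are set against cDC2, and triangles where cDC2 are set against cDC1; filled symbols passed an adjusted p of 0.05. The symbols for pDC lie left of 0 in every member but Tnfsf9, and the triangles spread to both sides, with Cd86 at -2.02 and Pdcd1lg2 at 2.98.

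Among the ligands of CD28 and CTLA-4, Cd86 (ENSMUSG00000022901, chromosome 16, 36603869 to 36666081, minus strand) was the more graded. Its level was 481, 497 and 501 CPM in replicates 1, 2 and 3 of cDC1, fell to 119.8, 122.0 and 121.9 in those of cDC2, and to 15.7, 10.5 and 13.8 in those of pDC. The subsets did not overlap, and within each conventional subset the libraries lay close together. From cDC1 to cDC2 the fitted log2 fold change was -2.02 (standard error 0.133, adjusted p = 7.59e-06, edgeR). It was -5.20 from cDC1 to pDC (standard error 0.155, adjusted p = 3.35e-08, edgeR) and -3.18 from cDC2 to pDC (standard error 0.142, adjusted p = 1.66e-07, edgeR). Of all genes tested, 4.10% had a larger absolute change between pDC and cDC1.

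Cd80 (ENSMUSG00000075122, also on chromosome 16, 38455561 to 38496335, plus strand) encodes the other ligand of the pair. The cDC1 libraries gave 38.8, 36.2 and 39.9 CPM, those of cDC2 gave 43.5, 40.1 and 42.9, and those of pDC 2.15, 1.22 and 1.12, where 71, 24 and 19 reads were counted. The pDC libraries lay far below all others, by a log2 fold change of -4.62 from cDC1 (standard error 0.229, adjusted p = 2.51e-07, edgeR) and -4.76 from cDC2 (standard error 0.229, adjusted p = 2.30e-07, edgeR). Between the conventional subsets every cDC2 library lay above every cDC1 library, but the difference was small, at 0.14 (standard error 0.185, adjusted p = 0.665, edgeR), and did not pass the threshold.

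The balance of the pair was followed as the ratio of Cd80 to Cd86 counts in each library, which does not depend on scaling. It was 0.0807, 0.0729 and 0.0798 in cDC1, 0.363, 0.329 and 0.352 in cDC2, and 0.138, 0.118 and 0.0828 in pDC. Each cDC2 library exceeded all others, and the pDC libraries lay between the conventional subsets, with replicate 3 close to cDC1. The geometric means of the lowest and highest subset differed 4.47-fold (exact permutation test over 1680 arrangements of the libraries, p = 0.00357, adjusted p = 0.00357 over 2 ratios, which is the smallest value this test allows). Because same-numbered libraries share a date code, subsets were also permuted within replicate numbers, which gave p = 0.0278 (exact permutation test).

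Icosl (ENSMUSG00000000732, chromosome 10, 78069302 to 78083913, plus strand), encoding the ligand of ICOS, had the smallest step to pDC among the B7 family costimulators Cd80, Cd86 and Icosl. Replicates 1, 2 and 3 gave 396, 407 and 368 CPM in cDC2, then 189.9, 163 and 155 for cDC1, and 76.4, 69.95 and 61.8 for pDC, so that cDC2 stood above cDC1 and cDC1 above pDC without overlap. From cDC1 to cDC2 the log2 fold change was 1.21 (standard error 0.116, adjusted p = 6.39e-05, edgeR). In pDC it was -1.28 against cDC1 (standard error 0.117, adjusted p = 1.25e-05, edgeR) and -2.49 against cDC2 (standard error 0.121, adjusted p = 2.44e-07, edgeR).

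**Figure D2:**
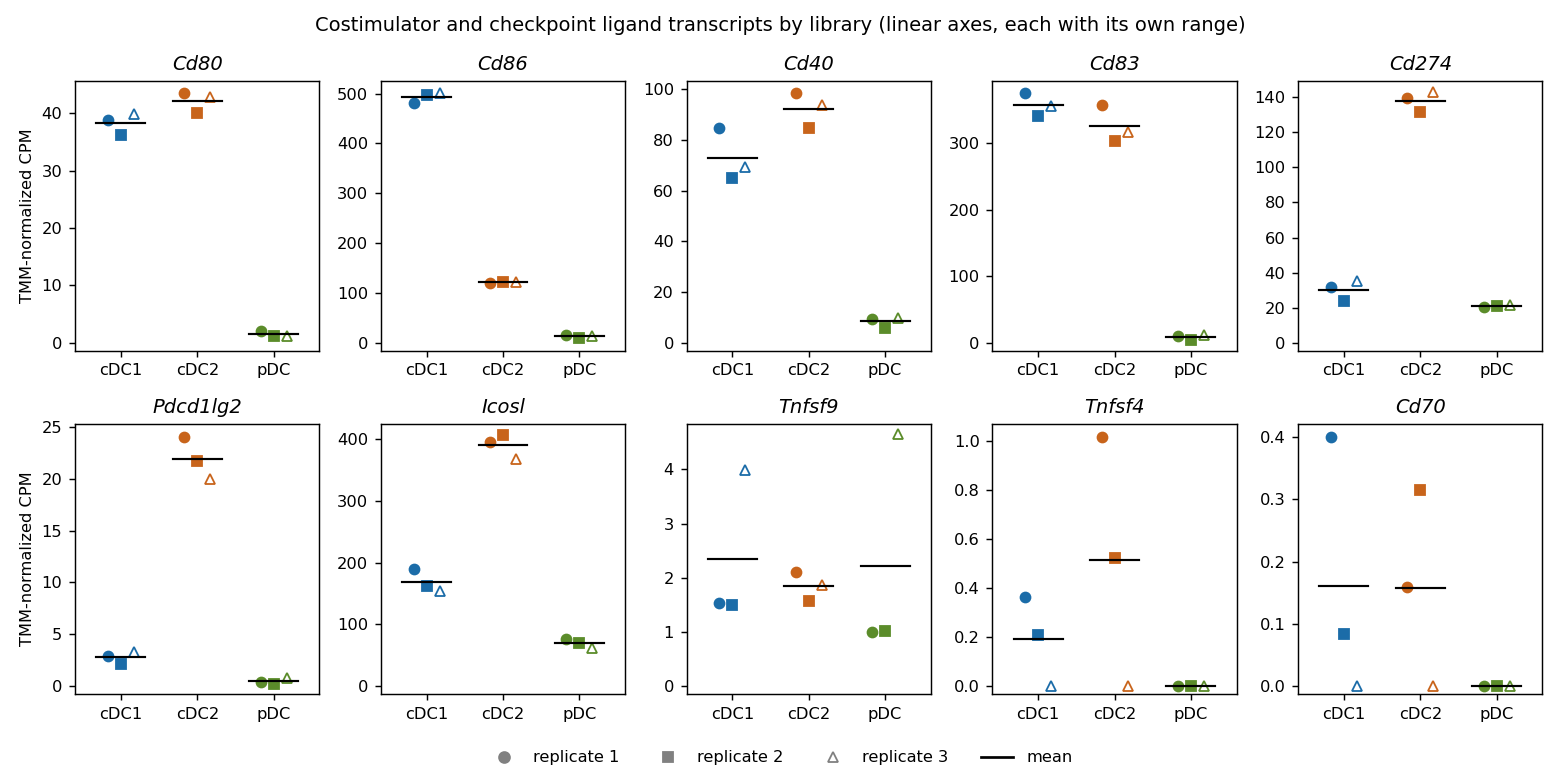
TMM-normalized CPM of each of the 10 members in each library (vertical axes linear, each with its own range); circles, squares and open triangles are replicates 1, 2 and 3 of cDC1, cDC2 and pDC, and lines are means. The pDC libraries lie lowest in every panel but Tnfsf9, sharing 0 with replicate 3 of the other subsets in Tnfsf4 and Cd70, Cd86 is highest in cDC1, Cd274, Pdcd1lg2 and Icosl are highest in cDC2, and in Tnfsf9 the replicate 3 libraries of cDC1 (3.99 CPM) and pDC (4.65 CPM) lie above the others.

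The PD-1 ligands were both highest in cDC2. Cd274 (ENSMUSG00000016496, chromosome 19, 29367455 to 29388095, plus strand) had levels of 139, 132 and 143 CPM for cDC2, of 31.8, 23.8 and 35.1 for cDC1 and of 20.5, 20.97 and 21.5 for pDC. Here cDC1 lay close to pDC rather than to cDC2. From cDC1 to cDC2 the log2 fold change was 2.19 (standard error 0.144, adjusted p = 7.47e-06, edgeR) and from cDC2 to pDC it was -2.72 (standard error 0.147, adjusted p = 4.47e-07, edgeR). The step from cDC1 to pDC was the smallest called among the members, at -0.52 (standard error 0.141, adjusted p = 0.0117, edgeR), and 56.5% of all genes had a larger one. This call is lost when a change of at least 1 on the log2 scale is required. Of the exon bases of Cd274, 14.1% are overlapped by AC119228.1 on the opposite strand, which has no row in the count table.

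Pdcd1lg2 (ENSMUSG00000016498, chromosome 19, 29410919 to 29471161, plus strand), encoding the second PD-1 ligand, was a low transcript outside cDC2. The cDC2 libraries held 24.1, 21.8 and 19.98 CPM, the cDC1 libraries 2.95, 2.17 and 3.25, and the pDC libraries 0.363, 0.203 and 0.824, where 12, 4 and 14 reads were counted. The 3 subsets did not overlap, although the pDC level lay near the limit of counting. cDC2 exceeded cDC1 by 2.98 on the log2 scale (standard error 0.336, adjusted p = 0.000157, edgeR), and pDC differed by -2.63 from cDC1 (standard error 0.394, adjusted p = 0.000372, edgeR) and by -5.61 from cDC2 (standard error 0.403, adjusted p = 2.72e-06, edgeR). Without replicate 3 the last difference was -6.23 (adjusted p = 5.45e-06, edgeR). Only 3.44% of all genes had a larger absolute change between the conventional subsets, against 6.87% for Cd274 and 7.82% for Cd86.

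The neighbouring genes thus shared the order of subsets but not the size of the steps. The ratio of Cd274 to Pdcd1lg2 counts was 10.7, 10.9 and 10.7 in cDC1, 5.79, 6.04 and 7.15 in cDC2, and 54.4, 92.1 and 25.2 in pDC. The subsets did not overlap, the ratio was lowest in cDC2, and the pDC libraries, with their 12, 4 and 14 Pdcd1lg2 reads, spread most widely. The lowest and highest geometric means differed 7.96-fold (exact permutation test, p = 0.00357, adjusted p = 0.00357 over 2 ratios, again the smallest value possible). Permuted within replicate numbers, the test gave p = 0.0278 (exact permutation test). These ratios carry a constant factor from the lengths of the genes and show the change of balance between subsets only.

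**Figure D3:**
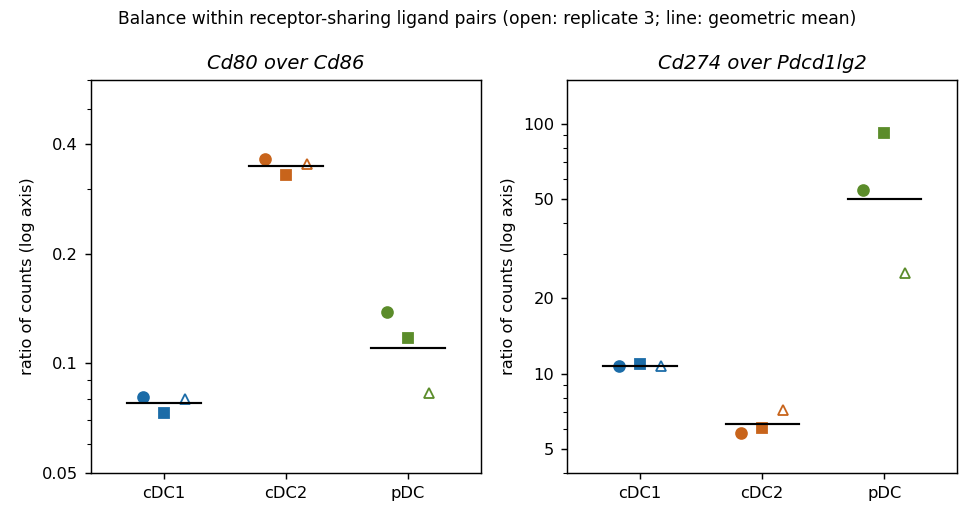
Ratio of Cd80 to Cd86 counts (left) and of Cd274 to Pdcd1lg2 counts (right) in each library, on log axes; lines are geometric means and open triangles are replicate 3. The Cd80 to Cd86 ratio is highest in cDC2 (geometric mean 0.348, against 0.0777 in cDC1), and the Cd274 to Pdcd1lg2 ratio is lowest there (6.30, against 50.2 in pDC).

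Cd40 and Cd83 set the conventional DC apart from pDC and did not pass the test between cDC1 and cDC2. Cd83 (ENSMUSG00000015396, chromosome 13, 43784775 to 43803132, plus strand), which encodes a glycoprotein that stabilises MHC class II and CD86 at the DC surface, was present at 375, 341 and 357 CPM in cDC1, with 357, 303 and 317 for cDC2, and only 10.7, 4.10 and 12.3 for pDC. The conventional subsets overlapped, and their difference was -0.14 (standard error 0.287, adjusted p = 0.798, edgeR). The pDC lay below cDC1 by a log2 fold change of -5.30 (standard error 0.350, adjusted p = 1.48e-06, edgeR) and below cDC2 by -5.17 (standard error 0.347, adjusted p = 1.82e-06, edgeR).

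Cd40 (ENSMUSG00000017652, chromosome 2, 165055627 to 165072948, plus strand), the receptor for CD40L, reached 84.6, 64.9 and 69.2 CPM in cDC1, with 98.6, 84.5 and 93.7 for cDC2, and only 9.59, 5.98 and 9.95 for pDC. In pDC its log2 fold change was -3.10 against cDC1 (standard error 0.202, adjusted p = 1.39e-06, edgeR) and -3.44 against cDC2 (standard error 0.205, adjusted p = 7.92e-07, edgeR). Between the conventional subsets the libraries overlapped by a narrow margin and the difference was 0.34 (standard error 0.183, adjusted p = 0.230, edgeR). cDC2 lay above cDC1 in each of the 3 same-numbered pairs, and in the fit with a replicate block the difference of 0.34 passed the threshold (adjusted p = 0.0415, edgeR).

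The TNF family ligands were sparse in all 3 resting subsets. Tnfsf9 (ENSMUSG00000035678, chromosome 17, 57105325 to 57107757, plus strand) yielded 1.53, 1.501 and 3.99 CPM from cDC1, with 2.10, 1.57 and 1.86 from cDC2, and 0.998, 1.01 and 4.65 from pDC. In cDC1 and pDC the replicate 3 library held the highest value, and in cDC2 it did not. No comparison passed the threshold over the 9 libraries (for pDC the log2 fold change was -0.08 from cDC1 and 0.25 from cDC2, with adjusted p of 0.934 and 0.794, and for cDC2 it was -0.32 from cDC1, with an adjusted p of 0.790, edgeR). Without replicate 3, pDC lay below cDC2 by a log2 fold change of -0.87 (adjusted p = 0.0319, edgeR), and the differences from cDC1 were -0.62 for pDC and 0.25 for cDC2 (adjusted p = 0.0973 and 0.510, edgeR). Of the differences of Tnfsf9, those of pDC and of cDC2 from cDC1 did not pass the threshold with or without replicate 3. Of its exon bases 14.9% are overlapped on the opposite strand by Gm11110, for which 55, 39 and 70 reads were counted in cDC1, 94, 69 and 58 in cDC2 and 130, 62 and 155 in pDC. Whether counting used the strand is not stated in the sources used here, so reads of the 2 genes in the overlap cannot be told apart.

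Tnfsf4 (ENSMUSG00000026700, chromosome 1) was counted 10, 5 and 0 times in cDC1, 32, 15 and 0 times in cDC2 and 0 times in every pDC library. Cd70 (ENSMUSG00000019489, chromosome 17, 38.2 kb from Tnfsf9) was counted 11, 2 and 0 times in cDC1, 5, 9 and 0 times in cDC2 and 0 times in every pDC library. Both genes were at 0 in replicate 3 of every subset, the libraries with few genes at a single count, and what part that loss has in these zeros was not tested. At this depth neither transcript was detectable in pDC, and neither passed the filter over the 9 libraries. Without replicate 3 Tnfsf4 passed the filter through its 32 and 15 counts in cDC2, where it was highest, and was called lower in pDC. A gene kept in this way, with counts of 0 in pDC, could not be called higher there. The direction of its calls was thus fixed beforehand, and they are given as a description only. Its log2 fold change was -6.03 from cDC1 (adjusted p = 0.0123, edgeR) and -7.41 from cDC2 (adjusted p = 0.00277, edgeR). With no filter it was called lower in pDC than in cDC2 (adjusted p = 0.0299, edgeR) and not called against cDC1. Against counts of 0 the size of these folds is not determined. No fold change is given for Cd70.

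Among the other members replicate 3 differed from the mean of replicates 1 and 2 by at most 0.34 on the log2(CPM + 1) scale in the conventional subsets. In pDC the shift was 0.78 for Cd83, 0.51 for Pdcd1lg2, 0.35 for Cd40 and -0.32 for Cd80. None of the 7 members called in both pDC comparisons lost its call without replicate 3.

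Per kilobase of merged exon, the order of the members within a subset could be compared. In cDC1, Cd83 (139 ± 6.56 CPM per kilobase, SD, n = 3) and Cd86 (135 ± 2.90) led with overlapping libraries, followed by Icosl at 36.6 ± 3.99 and Cd40 at 21.4 ± 3.04. In cDC2 the leading levels were Cd83 at 127 ± 10.9, Icosl at 84.4 ± 4.36, Cd274 at 38.1 ± 1.62 and Cd86 at 33.1 ± 0.341. The checkpoint ligand Cd274 thus ranked above Cd86 and Cd40 in cDC2 and below both in cDC1. In pDC, Icosl led at 15.0 ± 1.58, ahead of Cd274 at 5.80 ± 0.132, Cd86 at 3.65 ± 0.711 and Cd83 at 3.52 ± 1.69, and the libraries of the last 2 overlapped. With the length of the principal transcript in place of merged exons, Cd86 passed Cd83 in cDC1, and in cDC2 Icosl passed Cd83 and Cd86 passed Cd274.

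**Figure D4:**
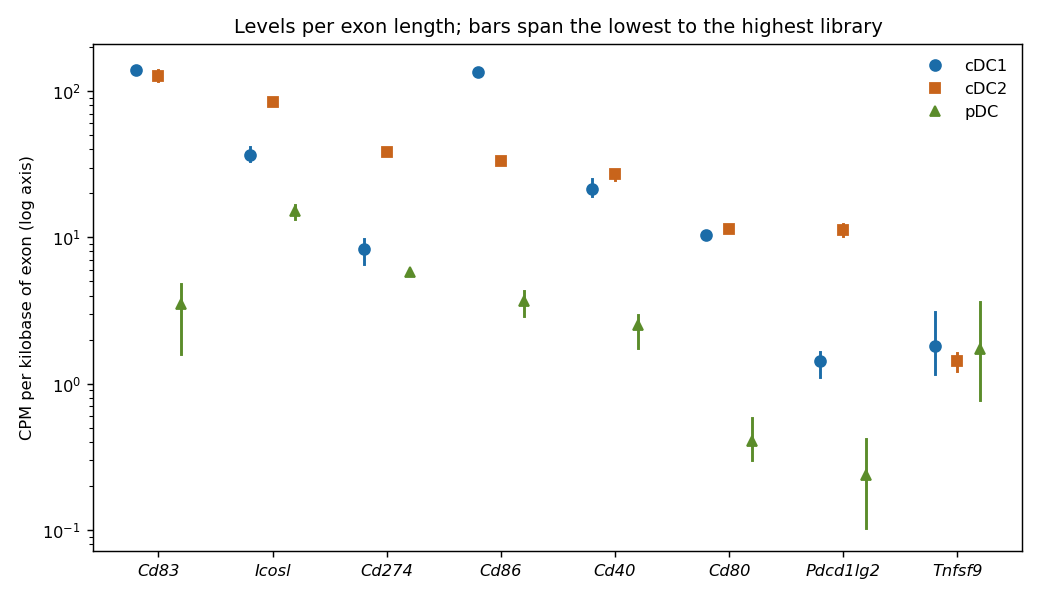
Mean CPM per kilobase of merged exon (log axis) of the 8 members tested in cDC1 (circles), cDC2 (squares) and pDC (triangles), with bars from the lowest to the highest library. Cd83 leads in both conventional subsets (139 and 127) and Icosl in pDC (15.0), while Tnfsf9 overlaps among all 3 subsets.

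The genes whose pattern over the 9 libraries was most like that of each member were named by the Pearson correlation of log2(CPM + 1), as a description. In a design of 3 subsets many genes reach high values, and between 19 and 75 genes per member had a correlation of 0.99 or more. Cd40 was followed most closely by Fscn1 (0.998), Myo1g (0.997) and Marcksl1 (0.997), of which Fscn1 encodes the actin-bundling protein of DC dendrites. Cd83 was followed by Agpat4 (0.999), Hfe (0.998) and H2-Ob (0.998), Cd80 by Asnsd1 (0.999), Ccnb2 (0.998) and Rab38 (0.998), and Cd86 by Rab43 (0.998), Plekho2 (0.997) and Cacna1s (0.997). Among the members highest in cDC2, Cd274 was followed by Cygb (0.998), Man1a (0.998) and Cyp4f16 (0.997), Pdcd1lg2 by Limd2 (0.999), Rnf43 (0.997) and Bbs9 (0.996), and Icosl by Rgs12 (0.998), Nod1 (0.997) and Slc12a2 (0.996). Nod1 encodes an intracellular sensor of bacterial peptidoglycan.

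The receptors that these ligands engage on T cells were themselves counted in the DC at low levels, with the exception of Cd28 in pDC. Of 8 receptor genes, 7 were tested. In pDC 3 were higher and 2 lower than in cDC1, 2 were higher and 3 lower than in cDC2, and 0 passed between cDC2 and cDC1 (at an unadjusted p of 0.05, 1 was higher and 1 lower, DESeq2 called 1 lower, and limma-voom called 1 higher and 1 lower). Without replicate 3 the last count was 2 higher and 1 lower, where 2637 of 14221 genes were higher and 2719 lower. The 2 lower in pDC than in cDC1 became 4, where 4499 of the 14221 genes were lower without replicate 3. Over the 9 libraries, 24.3% of all genes tested were higher and 24.4% lower in pDC than in cDC1. Against cDC2 the shares for pDC were 22.5% and 23.3%, and for cDC2 against cDC1 they were 12.7% and 11.7%. In pDC Cd28 reached 59.0 ± 7.58 CPM (SD, n = 3), while cDC1 held 0.635 ± 0.744 and cDC2 1.06 ± 0.420, a log2 fold change of 6.76 for pDC against cDC1 (adjusted p = 1.04e-05, edgeR). Icos (13.5 ± 3.53 in cDC1, 18.8 ± 3.79 in cDC2, 0.700 ± 0.410 in pDC) and Tnfrsf4, encoding OX40 (17.4 ± 5.40, 10.2 ± 3.79 and 0.435 ± 0.379), had the opposite distribution. Over 8 T cell markers the summed level was 14.6 to 22.0 CPM in cDC1, from 32.8 to 51.0 in cDC2 and from 32.1 to 46.2 in pDC. No marker was at 0 throughout a subset. In pDC Thy1 (18.3 ± 5.97) and Cd5 (10.7 ± 0.648) were the highest of them, while Cd3e stood at 0.375 ± 0.495 and Cd3d at 0.490 ± 0.189. The part of T cells in the receptor counts was not tested.

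Other co-signalling ligands went both ways in pDC. Of 13 such genes 11 were tested. pDC were higher than cDC1 in 4 and lower in 2, where 24.3% of all genes tested were higher and 24.4% lower. With 11 genes these counts lie near the shares of all genes. pDC were higher than cDC2 in 6 and lower in 2, where 22.5% of all genes were higher and 23.3% lower. Ceacam1, an inhibitory adhesion molecule, stood at 169 ± 15.8 CPM in pDC, with 17.2 ± 0.600 in cDC2 and 5.97 ± 0.510 in cDC1, with a log2 fold change of 4.82 for pDC against cDC1 (adjusted p = 2.76e-08, edgeR). Cd200, the ligand of the inhibitory receptor CD200R, stood at 101 ± 8.18 in pDC, with 24.9 ± 2.00 in cDC1 and 16.8 ± 2.19 in cDC2. Cd276 (B7-H3) stood at 14.0 ± 1.28 in pDC, with 2.66 ± 0.713 in cDC2 and 0.165 ± 0.116 in cDC1. The 2 genes lower in pDC than in cDC1 and in cDC2 were Icam1 and Btnl2. Icam1 stood at 149 ± 0.487 CPM in pDC, with 351 ± 21.9 in cDC1 and 314 ± 20.7 in cDC2, and Btnl2 stayed below 1 CPM. Vsir and Cd48 passed in no comparison. For cDC2 against cDC1, 4 of the 11 were higher and 3 lower, where 12.7% of all genes were higher and 11.7% lower. Pvr, the ligand of TIGIT and CD226, was lower in cDC2 by a log2 fold change of -1.38 (adjusted p = 0.000660, edgeR).

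Among the remaining TNF family ligands and the genes of CD40 signalling, most calls placed cDC2 above the other subsets. Of 10 tested TNF family ligands, 7 were lower and 0 higher in pDC than in cDC2. Of all genes tested, 23.3% were lower and 22.5% higher in that comparison. In cDC2, 6 were higher and 0 lower than in cDC1, where 12.7% of all genes were higher and 11.7% lower. Against cDC1 pDC were higher in 1 and lower in 2, where the shares of all genes were 24.3% and 24.4%. Without replicate 3, 4 were lower in pDC than in cDC1, where 4499 of 14221 genes were lower. The counts of 0 also held at an unadjusted p of 0.05, with DESeq2 and with limma-voom. Tnfsf8, the CD30 ligand, stood at 11.0 ± 1.59 CPM in cDC2, with 0.510 ± 0.269 in cDC1 and 1.09 ± 1.25 in pDC, and Tnfsf14 (LIGHT) stood at 15.6 ± 3.47, 4.44 ± 0.696 and 0.637 ± 0.606 in the same order. Tnfsf10 (TRAIL) was the gene higher in pDC than in cDC1, at 9.10 ± 1.73 against 0.920 ± 0.340. All 12 genes of the CD40 signalling list were tested, and 10 were lower in pDC than in cDC2 (23.3% of all genes). In cDC2, 8 were higher than in cDC1 (12.7% of all genes). Against cDC1 pDC were lower in 4 and higher in 1 (24.4% and 24.3% of all genes). Without replicate 3 pDC were lower than cDC1 in 7, where 4499 of 14221 genes were lower. Relb, an NF-kB subunit of the noncanonical arm, stood at 518 ± 47.1 CPM in cDC2, with 156 ± 29.8 in cDC1 and 55.8 ± 2.46 in pDC. Traf1, a signalling adaptor of TNF receptors, stood at 350.1 ± 25.5, 205 ± 35.9 and 38.4 ± 3.33 in that order, and Traf3 at 69.4 ± 15.3, 33.2 ± 11.9 and 36.5 ± 12.1. Cd40 itself did not pass the test between cDC2 and cDC1, as given above.

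Most genes of the DC maturation list were, like the members, lower in pDC. Of 11 tested, 9 were lower and 1 higher in pDC than in cDC1, where 24.4% of all genes were lower and 24.3% higher. Against cDC2, 10 were lower in pDC, where 23.3% of all genes were lower. In cDC2, 4 were higher and 2 lower than in cDC1, where 12.7% of all genes were higher and 11.7% lower. Apol7c stood at 1147 ± 248 CPM in cDC1, with 259 ± 78.2 in cDC2 and 9.39 ± 8.19 in pDC. Ccl22, which encodes a chemokine of mature DC, stood at 99.0 ± 29.8, 38.6 ± 11.8 and 1.30 ± 1.18 in the same order. Marcksl1 (214 ± 49.7, 381 ± 72.0 and 11.7 ± 4.53) and Socs2 (21.7 ± 7.85, 29.5 ± 5.89 and 1.04 ± 0.163) were lower in pDC than in both conventional subsets. Ccl5 was higher in cDC2 than in cDC1 by a log2 fold change of 1.58 (adjusted p = 0.0232, edgeR).

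A list of 6 genes taken as regulators of the member proteins held 2 that were lower in pDC than in both conventional subsets and lower in cDC2 than in cDC1, namely March1 and the tetraspanin Cd81, and 1 that was higher in pDC than in cDC2. Without replicate 3, 4 of the 6 were lower in pDC than in cDC1, where 4499 of 14221 genes were lower. In that fit 4 were lower in cDC2 than in cDC1, where 2719 of the 14221 genes were lower. Over the 9 libraries, 24.4% of all genes tested were lower in pDC than in cDC1 and 23.3% lower in pDC than in cDC2. In cDC2 11.7% were lower than in cDC1. March1, a ubiquitin ligase that removes CD86 and MHC class II from the DC surface, stood at 248 ± 19.8 CPM in cDC1, with 142 ± 15.4 in cDC2 and 56.7 ± 4.57 in pDC, which is the order of Cd86 transcripts. Its log2 fold change for cDC2 against cDC1 was -0.81 (adjusted p = 0.000675, edgeR). Surface protein was not measured in these data.

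**Figure D5:**
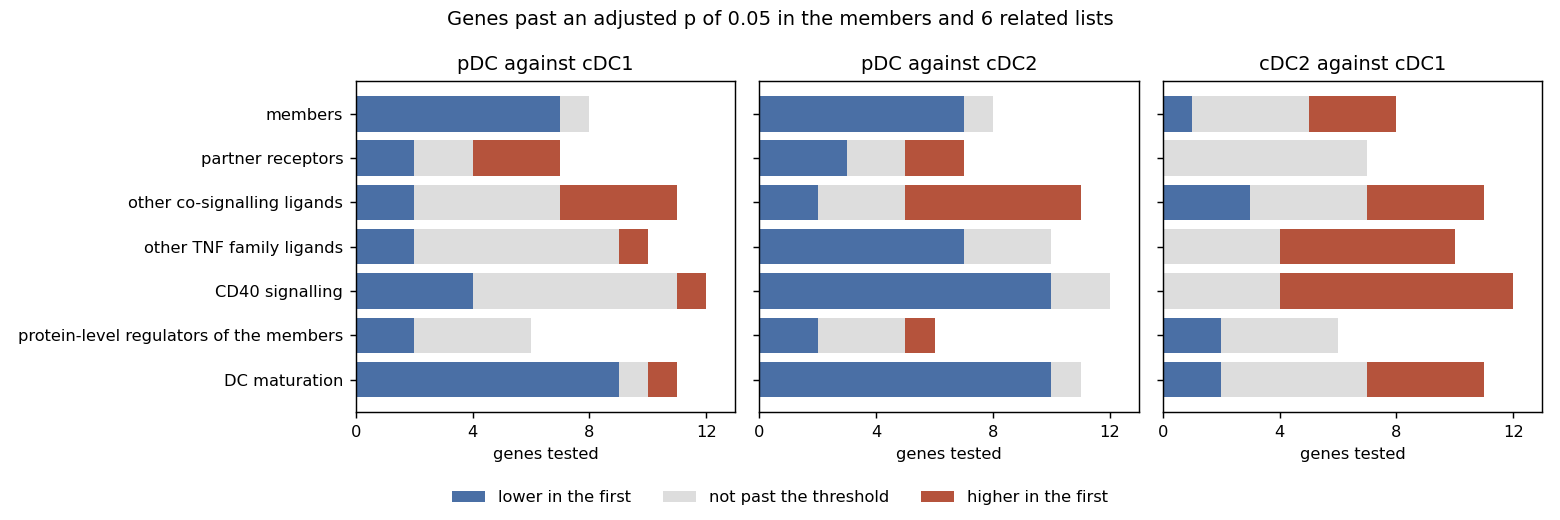
Number of tested genes (horizontal axes) that were lower, not past the threshold or higher in the first-named subset, at an adjusted p of 0.05, for the members and 6 related gene lists. The members are lower in pDC in 7 of 8 and the DC maturation list in 9 and 10 of 11. Among the other co-signalling ligands 4 and 6 of 11 are higher in pDC and 2 are lower. Of all genes tested, 24.4% and 23.3% were lower in pDC than in cDC1 and cDC2, and 24.3% and 22.5% higher.

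The immediate-early and heat-shock genes, which respond to handling and stress, also differed between the subsets. Of the 10 genes, 4 were lower in pDC than in cDC1 and the same number than in cDC2, where 24.4% and 23.3% of all genes were lower. The median log2 fold changes over the list were -1.48 and -1.51. Hspa1a, a stress-inducible heat-shock gene, had log2 fold changes of -2.67 and -2.98 (adjusted p = 8.27e-05 and 4.65e-05, edgeR). These 4 genes were lower in the subset in which the 7 members were lower, and their part in the members' levels was not tested.

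Markers of cells that could accompany the sort are set beside the members, and some of these lists differed between the subsets. The summed level of 8 macrophage markers was 457 to 639 CPM in cDC2, 95.2 to 166 in cDC1 and 30.2 to 173 in pDC, so it was highest where Cd274, Pdcd1lg2 and Icosl were highest. Of these 8 markers 5 were higher in cDC2 than in cDC1, against 12.7% of all genes tested, and none was at 0 throughout a subset. The markers were uneven: Adgre1 stood at 344 ± 41.7 CPM in cDC2, with 14.0 ± 6.14 in cDC1 and 14.0 ± 8.60 in pDC. C1qb stood at 48.0 ± 16.2, 8.60 ± 4.08 and 16.1 ± 11.2 in that order. Vcam1, Mertk and Cd5l did not pass between cDC2 and cDC1. The part of macrophages in the 3 members was not tested. A set of 7 B cell markers summed to 56.5 to 59.6 CPM in cDC1, 71.1 to 83.5 in cDC2 and 82.0 to 104 in pDC, with none at 0 throughout a subset. Within it the genes went different ways: Ms4a1, which encodes CD20, stood at 47.6 ± 3.05 CPM in cDC1, with 29.2 ± 2.75 in cDC2 and 1.13 ± 0.317 in pDC, while Cd79b, part of the B cell receptor, stood at 9.70 ± 1.71, 36.1 ± 4.51 and 84.1 ± 12.5 in that order. Cr2 (7.09 ± 1.10 CPM against 0.276 ± 0.0967) and Fcer2a (2.91 ± 0.273 against 0.590 ± 0.143) were higher in cDC2 than in cDC1 (adjusted p = 0.00101 and 0.00214, edgeR). Other markers of this set were sparse. Pax5 and Ebf1 did not pass the filter, with mean levels of 0.0642 and 0.0677 CPM in cDC1, 0.0997 and 0.101 in cDC2 and 0.165 and 0.192 in pDC. Cd79a stood at 0.222 ± 0.0285 in cDC1, 0.380 ± 0.334 in cDC2 and 2.35 ± 1.85 in pDC. B cells also carry Cd86, Cd40, Cd83 and Icosl, and their part in the members' levels was not tested. Natural killer cell markers (7 genes) summed to 11.5 to 36.9, 27.3 to 114 and 11.9 to 44.6 CPM in cDC1, cDC2 and pDC, and neutrophil markers (7 genes) to 5.92 to 29.0, 24.3 to 52.5 and 5.22 to 36.6. The 6 monocyte markers summed to 93.6 to 203, 331 to 547 and 2231 to 3152. In pDC most of that sum was Ly6c2 (2225 ± 424 CPM), which with Ccr2 was higher in pDC than in both conventional subsets. Ms4a4c was lower in pDC than in cDC2 (log2 fold change -2.59, adjusted p = 0.000246, edgeR). F13a1, Fn1 and Chil3 passed in no comparison. The part of monocytes in the members' levels was not tested. The 6 erythroid markers summed to 44.6 to 57.5, 47.7 to 64.0 and 36.6 to 67.9. No tested neutrophil or erythroid marker passed a test between subsets.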

How the data were processed

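RNA of sorted splenic DC was sequenced from stranded mRNA libraries with single 75-base reads. The authors deposited raw read counts per gene for 9 libraries, without normalization. The submitters' processing notes name STAR, SAMtools, featureCounts, MultiQC and the mm10 build, with no versions. Whether counting used the strand and which annotation was used is not given in the sources used here.

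The tests were run with edgeR 4.0.16 in R 4.3.3: filterByExpr with a minimum count of 10, TMM scaling, 1 fit over 9 libraries with subset as the only term, the quasi-likelihood test, and Benjamini-Hochberg adjustment over 13819 genes with a threshold of 0.05. Libraries were grouped by their labels. The members and gene lists were chosen with earlier results of these data known. Besides the members, the text names the sort markers, the 3 genes most correlated with each member of at least 10 CPM, and up to 2 genes per list and comparison with the largest change among those called with at least 100 mean counts. Clec10a, Cd209a, Clec4a4, Esam, Itgam, Ly6c2, Fcer2a, Tnfsf10, Vcam1, Mertk, Cd5l, Cd3d, Cd3e, Gm11110 and AC119228.1 also appear where a statement turns on them. The same holds for Icam1, Btnl2, Vsir, Cd48, Pax5, Ebf1, Cd79a, F13a1, Fn1 and Chil3. Ratios were tested by exact permutation. Positions and lengths come from GENCODE M21. One lineage marker is not reported here, and its list is given without it.

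The pairing was checked: same-numbered libraries share a date code, and all 9 correlations of their deviations lay between 0.266 and 0.543. Replicates differed beyond sampling noise (chi-square per degree of freedom 9.93 to 64.4). On simulated data for pDC against cDC1 (13819 genes, 200 changed), edgeR recovered 44 of 100 changes of 2-fold and 80 of 100 of 4-fold, with 3.88% of calls false, and DESeq2 1.42.0 gave 26.2% false. The alternatives were the replicate block, DESeq2, limma-voom (limma 3.58.1), other scalings, filters and thresholds, fits of 6 libraries, and libraries left out. List counts without replicate 3 were added after seeing the data. Figures used matplotlib 3.10.9.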

Additional observations from a re-analysis of the deposited data

How the results depend on the processing

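Over the alternatives the number of members called ran from 6 to 8 for pDC against cDC1 (7 in the report), from 6 to 9 for pDC against cDC2 (7) and from 3 to 5 for cDC2 against cDC1 (4). The sign differed from the report in 10 of 60 Tnfsf9 fold changes and in 0 of those of the 7 other members. The side of the threshold changed in 3 of 477 member fold changes, which were Cd274 for pDC against cDC1, lost when a log2 change of at least 1 was required (-0.52), Cd40 for cDC2 against cDC1, called with the replicate block (0.34, adjusted p = 0.0415, edgeR), and Tnfsf9 for pDC against cDC2, whose log2 fold change ran from -0.87 without replicate 3 to 0.61 without pDC replicate 1. These 477 fold changes are of the 8 members tested over the 9 libraries, so the calls of Tnfsf4 given above are not among them. The replicate block changed no other member's call. Over all genes, the stricter rule of a log2 change of at least 1 left 4063 calls in place of 6718 for pDC against cDC1, 3837 in place of 6328 for pDC against cDC2 and 1812 in place of 3370 for cDC2 against cDC1. With libraries left out, the last count ran from 2451 without cDC2 replicate 1 to 5356 without replicate 3. Causes were not tested. Scaling by library size alone gave a median over all genes of 0.11 in place of 0.02 for pDC against cDC1. For cDC2 against cDC1 it gave 0.14 in place of 0.03. The splits were 3801 higher to 3015 lower and 2204 to 1287, in place of 3352 to 3366 and 1760 to 1610. A minimum of 10 counts in every library removed Pdcd1lg2. Both ratios kept their call in all 22 alternatives. Depth limits Tnfsf4, Cd70, Tnfsf9 and Pdcd1lg2 in pDC.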
